A study of Mus musculus with 16 samples.

Results

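The triad is the junction where a T-tubule, an inward fold of the muscle fibre membrane, meets the terminal sacs of the sarcoplasmic reticulum. The 10 genes encoding its excitation-contraction coupling machinery that were examined here are Cacna1s, Cacnb1, Cacna2d1, Cacng1, Stac3, Ryr1, Ryr3, Jph1, Jph2 and Trdn. All 10 symbols were found among the 21627 protein-coding genes of the RefSeq table for GRCm38.p6, the assembly behind the mm10 coordinates. A region was assigned to one of them when it overlapped the gene body, or lay within 50 kb outside genes with that gene as the nearest protein-coding gene. This gave 38 of 24420 MyoD regions and 82 of 60038 H3K27ac regions. A region is the union of overlapping or touching peaks of the 4 libraries of an antibody, and its fold enrichment in a library is the highest value among that library's peaks in it. The values that follow describe these libraries and were not tested between groups: with 2 libraries against 2, the exact permutation test cannot give a p below 0.333.

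In skeletal muscle the dihydropyridine receptor in the T-tubule senses depolarisation and opens the ryanodine receptor of the reticulum through direct contact, so that calcium leaves the store without entry from outside. Junctophilins tie the membranes together, and triadin anchors the store proteins at the release site. These genes belong to the late programme of myotube differentiation. MyoD, a basic helix-loop-helix transcription factor, binds E-box sequences of the form CANNTG, and H3K27ac is an acetylation of histone H3 found at active promoters and enhancers.

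The libraries came from cultured satellite cells, which are muscle stem cells, isolated from the hindlimb of C57BL/6 mice. The labels divide them into a control and a LncMyoD-KD genotype, the latter with a knockdown of the long noncoding RNA LncMyoD. A 48 h exposure to small interfering RNA against that transcript is stated in the same words for all 16 samples, so the sources used here do not tell how the control cells were treated. For each antibody there were 2 control and 2 knockdown libraries, and the labels do not say whether the replicates came from separate animals or cultures. Neither depletion of LncMyoD nor transcription of the triad genes can be read from ChIP peaks. Lists held 13146 to 17818 MyoD peaks and 39964 to 54082 H3K27ac peaks, with knockdown 2 the shortest for both antibodies, and read depth is unknown. As a check of the labelled cell type, 7 of 8 genes marking satellite cells and myoblasts and 5 of 5 of early differentiation held a MyoD region present in all 4 libraries. H3K27ac regions of all 4 libraries were found at all of these genes. Of all protein-coding genes, 23.0% held such a MyoD region and 54.6% such an H3K27ac region. Markers of other cell types carried such regions too, MyoD at 3 of 3 endothelial, 2 of 3 smooth muscle, 1 of 4 fibro-adipogenic and 0 of 3 immune markers, and H3K27ac at 3 of 3, 2 of 3, 3 of 4 and 1 of 3. Of these markers, Pdgfra, Myh11 and Ptprc carried no region of either antibody. The part of other cells in the results was not tested.

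Every triad gene carried MyoD, as did 40.7% of all protein-coding genes. All 10 held at least 1 MyoD region with a peak in all 4 libraries, and all 10 held such an H3K27ac region. Among all protein-coding genes, 23.0% held a MyoD region present in all 4 libraries, called constant here, and 54.6% a constant H3K27ac region. Among the 11800 genes with constant H3K27ac, 38.0% held constant MyoD, and among the 9705 of these within the range of lengths of the 10, 40.4% did. That range is wide, from 7.21 kb to 586 kb, so these genes were not matched to the 10 for length. Of the 38 MyoD regions, 18 were present in all 4 libraries, 7 in 3, 5 in 2 and 8 in 1, and the constant share of 47.4% compares with 40.8% over all MyoD regions. Of the 82 H3K27ac regions, 30 were present in all 4 libraries, or 36.6% against 43.5% over all regions, and 30 were seen in 1 library only (36.6%, against 33.3%). For MyoD the share seen in 1 library was 21.1%, against 30.8%. The bar chart of regions by gene shows how unevenly they were spread. Jph1 and Jph2 had 16 H3K27ac regions each, and Stac3 and Cacng1 had 1 each.

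**Figure D1:**
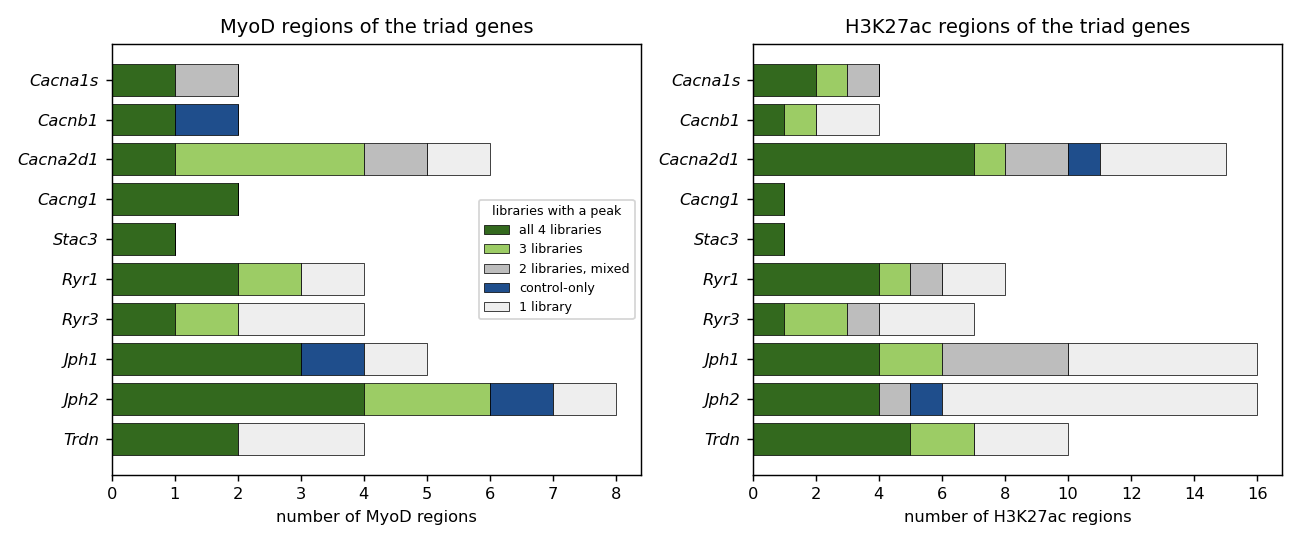
Number of MyoD regions (left) and H3K27ac regions (right) assigned to each triad gene, stacked by the libraries that held a peak, with blue for regions seen in both controls and neither knockdown library. Each gene has at least 1 region of all 4 libraries for each antibody, and most of the 16 H3K27ac regions at Jph1 and at Jph2 were missing from 1 or more libraries.

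Start sites of 5 of the 10 genes were listed in the RefSeq promoter table of GRCm38.p6, and their promoters were compared over the 250 bases before the start. The promoters of 3 genes are printed because they show the kinds of site seen: a promoter under a MyoD peak (Cacna1s), a promoter with a CAGCTG E-box and H3K27ac but no MyoD peak (Jph2), and a promoter whose MyoD region lies inside the gene instead (Ryr1). Capitals mark every CANNTG on either strand, a form that is its own reverse complement apart from the central bases. The Cacna1s stretch is chr1:136052561-136052810 on the plus strand, the Jph2 stretch chr2:163397994-163398243 on the minus strand and the Ryr1 stretch chr7:29125152-29125401 on the minus strand, each written 5′ to 3′ along the gene.
Cacna1s: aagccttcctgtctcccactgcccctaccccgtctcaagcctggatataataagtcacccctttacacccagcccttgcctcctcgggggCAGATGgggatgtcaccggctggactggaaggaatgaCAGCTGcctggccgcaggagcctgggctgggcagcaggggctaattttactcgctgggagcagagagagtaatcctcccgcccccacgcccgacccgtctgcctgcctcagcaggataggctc
Jph2: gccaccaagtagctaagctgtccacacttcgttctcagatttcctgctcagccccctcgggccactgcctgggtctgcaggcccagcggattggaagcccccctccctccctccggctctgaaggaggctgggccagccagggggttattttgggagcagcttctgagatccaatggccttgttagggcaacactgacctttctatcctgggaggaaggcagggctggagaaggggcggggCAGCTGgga
Ryr1: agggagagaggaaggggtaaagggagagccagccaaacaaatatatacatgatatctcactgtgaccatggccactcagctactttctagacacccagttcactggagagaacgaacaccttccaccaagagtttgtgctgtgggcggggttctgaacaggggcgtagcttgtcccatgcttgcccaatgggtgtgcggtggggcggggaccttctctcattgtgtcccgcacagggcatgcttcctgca

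The Cacna1s promoter holds CAGATG 160 bases and CAGCTG 123 bases before the start. The Jph2 promoter holds CAGCTG 9 bases before the upstream of its 2 listed starts, and the Ryr1 promoter, the Cacna2d1 promoter and the upstream of the 2 Cacnb1 promoters hold no CANNTG. The downstream Cacnb1 promoter holds CACATG. Of 32817 promoter windows of the same length in the table, 66.2% hold CANNTG and 13.0% hold CAGCTG. Of the 918 windows under a MyoD region of all 4 libraries, 39.1% hold CAGCTG. A match is a description of the letters and not of binding, and the MyoD regions inside the genes were not searched, since only promoter sequences were used.

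The voltage-sensing side of the machinery is the dihydropyridine receptor, whose pore and voltage sensor is the Cacna1s product (mm10 chromosome 1, 136052806 to 136119822). Its highest MyoD region lay 14.0 kb downstream of the start (136066349 to 136067066), with a fold enrichment of 17.5 and 18.5 in the controls against 18.9 and 16.1 under knockdown. The groups overlapped. Among the 9958 MyoD regions of all 4 libraries its mean fold stood at the 94.2 percentile, the highest of the 18 constant triad regions, and its summits in the 4 libraries lay within 28 bp. It sat in an H3K27ac region of 1994 bp with 5.53 and 9.10 against 7.54 and 6.76. At the promoter printed above, a second MyoD region (136052493 to 136052782) was called only in control 2 at 4.13 and knockdown 1 at 5.84, with its summit 0.188 kb before the start. An H3K27ac region reaching into the same stretch (136051909 to 136052662) had a peak in every library, at 6.51, 5.62, 5.82 and 5.74 in the order control 1, control 2, knockdown 1, knockdown 2. Cacna1s thus had its high MyoD values inside the gene, and a low value at its start in 1 library of each group.

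Cacnb1 encodes the intracellular β subunit, which brings the channel to the membrane (chromosome 11, 98001508 to 98023034). MyoD occupied a site 1.33 kb downstream of the nearer listed start (98020998 to 98021599) in every library, with 17.2 and 15.2 in the controls against 13.3 and 13.7 under knockdown. Both knockdown folds were below both control folds, but the percentile of knockdown 2 (89.2) lay between those of control 2 (88.9) and control 1 (92.5). The H3K27ac region over that site was 3218 bp wide, with 12.6, 13.3, 13.3 and 10.6, and it also overlapped the ribosomal protein gene Rpl19, so the acetylation of the genes cannot be told apart there. A MyoD region 0.782 kb beyond the far end of the gene (98000422 to 98000725) was control-only, meaning a peak in both control and neither knockdown library, with 5.29 and 5.30.

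Cacna2d1 encodes the largely extracellular α2δ1 subunit (chromosome 5, 15934264 to 16374511). It had 6 MyoD regions but only 1 constant one, 37.3 kb downstream of the start (15971704 to 15972260), with 13.9 and 12.9 in the controls against 13.6 and 10.6 under knockdown. Another 3 had peaks in every library but knockdown 2, at 3 different places 32.4 kb, 101 kb and 484 kb downstream of the start, the last of them beyond the gene. H3K27ac was spread over 15 regions, of which 7 were constant. The region over the promoter (15934103 to 15935599) had 9.67 and 6.21 against 8.37 and 6.76, and no MyoD region overlapped it. The highest lay 122 kb downstream of the start (16055952 to 16057906), with 8.37 and 11.5 against 10.0 and 9.05. A control-only H3K27ac region (16035088 to 16035442; 3.72 and 5.33) overlapped the MyoD region at 101 kb, which was itself called in both controls at 5.29 and 6.29 and in knockdown 1 at 4.79.

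Cacng1 encodes the γ subunit found in skeletal muscle (chromosome 11, 107703218 to 107716476). Its 2 MyoD regions were both constant and both inside its single H3K27ac region of 3831 bp, which had 13.6, 13.9, 15.3 and 11.2. The MyoD region over the gene end (107716299 to 107716917) had 13.4 and 16.6 in the controls against 16.8 and 16.5 under knockdown. The neighbour 1.61 kb from that end (107714185 to 107714870) had 13.9 and 9.60 against 9.58 and 8.23. Strand is not listed for this gene in the promoter table, so the end was not called a start. Stac3 encodes the adaptor that couples the dihydropyridine receptor to the release channel (chromosome 10, 127501617 to 127508823). It is the shortest of the 10 genes at 7.21 kb and had 1 region of each antibody. The MyoD region over its lower-numbered end (127501334 to 127501996) had 19.8 and 14.6 in the controls against 16.2 and 16.5 under knockdown, the knockdown values lying between the controls. The H3K27ac region of 3495 bp around it had 13.8, 22.8, 16.9 and 17.2, the highest mean of the 30 constant triad regions, and it also overlapped the neighbouring gene R3hdm2.

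**Figure D2:**
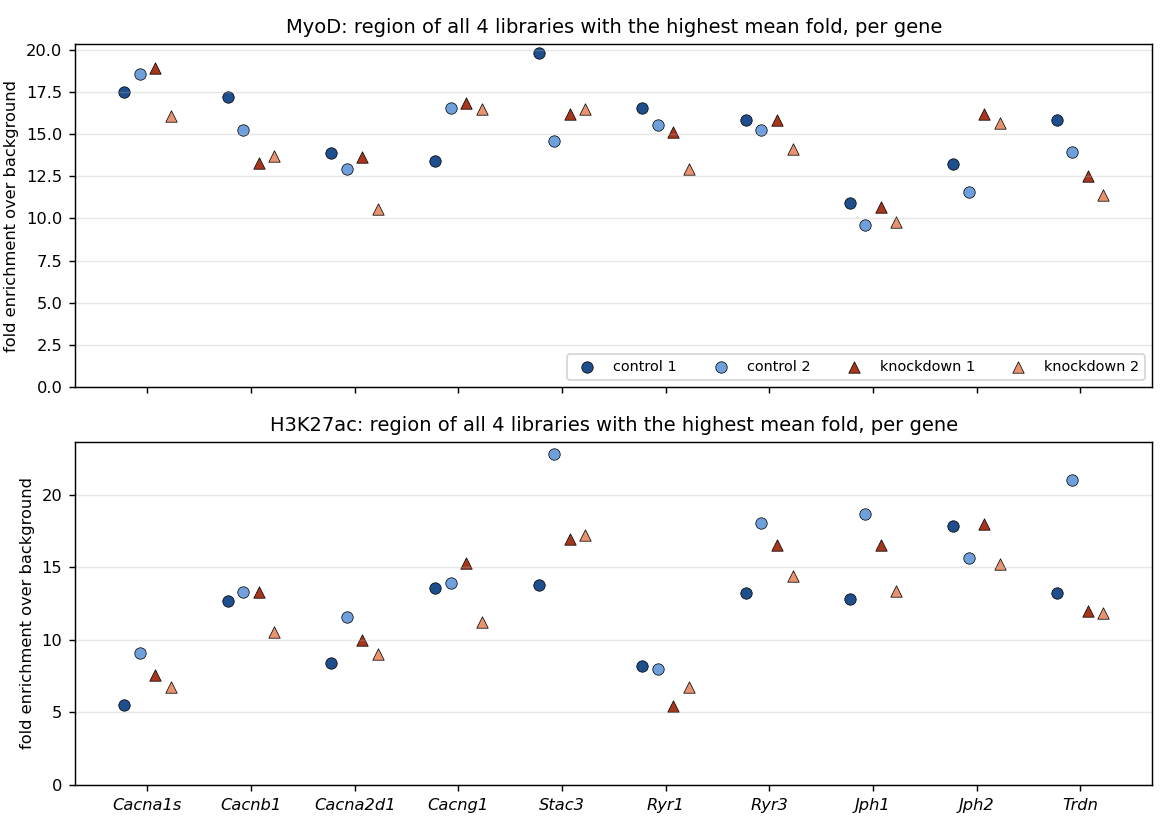
Fold enrichment over background (linear axis from 0) in each library, control as circles and knockdown as triangles, for the constant region with the highest mean fold of each gene, MyoD above and H3K27ac below. MyoD values run from 9.60 at Jph1 to 19.8 at Stac3, and at most genes the control and knockdown points overlap.

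On the release side, Ryr1 encodes the calcium release channel of skeletal muscle (chromosome 7, 29003340 to 29125179). MyoD occupied a region just inside the gene (29123666 to 29124551), its summit 1.20 kb downstream of the start, with 16.5 and 15.6 in the controls against 15.1 and 12.9 under knockdown. The percentiles in the same order were 91.2, 89.8, 87.1 and 86.8, so both knockdown libraries ranked it below both controls. The surrounding H3K27ac region (29123212 to 29125120) ended inside the gene, short of the promoter stretch printed above. It had 8.18 and 7.99 against 5.46 and 6.76, and its percentiles of 59.2 and 50.2 in the controls were above those of 19.2 and 48.4 in the knockdown. The low H3K27ac rank was mainly that of knockdown 1, since knockdown 2 was within 2 percentile points of control 2. A second constant MyoD region (29061236 to 29061747), 63.7 kb downstream of the start, was weak, at 6.25, 8.11, 4.56 and 6.27, and its H3K27ac region lacked a peak in knockdown 2.

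Ryr3 encodes a second release channel, best known from developing muscle and from the nervous system (chromosome 2, 112631354 to 113217405). At 586 kb it is the longest of the 10 genes, and it had 1 constant region of each antibody, at the same place 101 kb from the nearer gene end. The MyoD region there (113115228 to 113116310) had 15.9 and 15.2 in the controls against 15.8 and 14.1 under knockdown, with percentiles from 88.9 to 90.2 in the 4 libraries. The H3K27ac region (113114011 to 113117648) had 13.2, 18.1, 16.6 and 14.4. A further MyoD region (113030627 to 113031124) overlapped no H3K27ac region. An H3K27ac region called only in knockdown 1 (113031127 to 113031391; 3.69) began just past its end. The MyoD region had 7.60 and 7.95 in the controls, 5.50 in knockdown 1 and no peak in knockdown 2. It had the highest mean fold, 7.02, among the 20 triad MyoD regions that were not constant.

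Junctophilins bridge the T-tubule and the reticulum. Jph1, the form prominent in skeletal muscle (chromosome 1, 16942104 to 17097922), had 3 constant MyoD regions, of which the highest (16996618 to 16997152) had 10.9 and 9.60 in the controls against 10.7 and 9.80 under knockdown. It lay in the highest H3K27ac region of the gene (16996112 to 16998162; 12.8, 18.6, 16.6 and 13.4). The other constant sites starting at 17001318 and 17085177 were below 9 in every library. At the higher-numbered end of the gene, a MyoD region (17097683 to 17098092) was control-only at 4.63 and 5.63, while the H3K27ac region over it (17096451 to 17098244) was present in all libraries, at 7.81 and 5.60 against 9.82 and 7.26. A wide H3K27ac region inside the gene (17058431 to 17061275; 9.30, 14.2, 11.8 and 9.05) had no MyoD region.

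Jph2, the form also prominent in heart (chromosome 2, 163336242 to 163398049), had the most MyoD regions, 8, and the widest H3K27ac region. That region measured 25.5 kb (163343476 to 163368927), at the 99.97 percentile of width among constant H3K27ac regions, with 17.8 and 15.6 in the controls against 18.0 and 15.2 under knockdown. Peaks covered 23.9 and 24.9 kb of it in the controls against 24.0 and 22.4 kb under knockdown. It contained 7 of the 8 MyoD regions, of which 3 were constant. The remaining MyoD region (163386640 to 163387266) lay 11.0 kb downstream of the start in a separate H3K27ac region of 3811 bp, with 13.5 and 13.9 against 15.8 and 9.80.

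Within the wide Jph2 domain neighbouring MyoD sites differed in their values. The one nearest the far end of the gene (163344913 to 163345360) had 13.2 and 11.6 in the controls against 16.2 and 15.7 under knockdown, so both knockdown libraries were above both controls. The site starting at 163353682 had 11.6, 6.95, 10.7 and 9.80, with control 2 apart from the other libraries. The site starting at 163356460 had 9.58, 5.96, 6.26 and 5.09, with control 1 apart. The next (163358644 to 163359275) was control-only, at 5.95 and 6.62, and the region starting at 163364845 had 5.95, 5.30 and 5.89 with no peak in knockdown 2. A control-only H3K27ac region of 384 bp (163390856 to 163391239; 2.79 and 3.75) lay between the wide domain and the promoter and held no MyoD. The promoter itself lay in an H3K27ac region of 6945 bp (163393066 to 163400010; 13.8, 19.2, 14.2 and 14.4) that held no MyoD region.

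**Figure D3:**
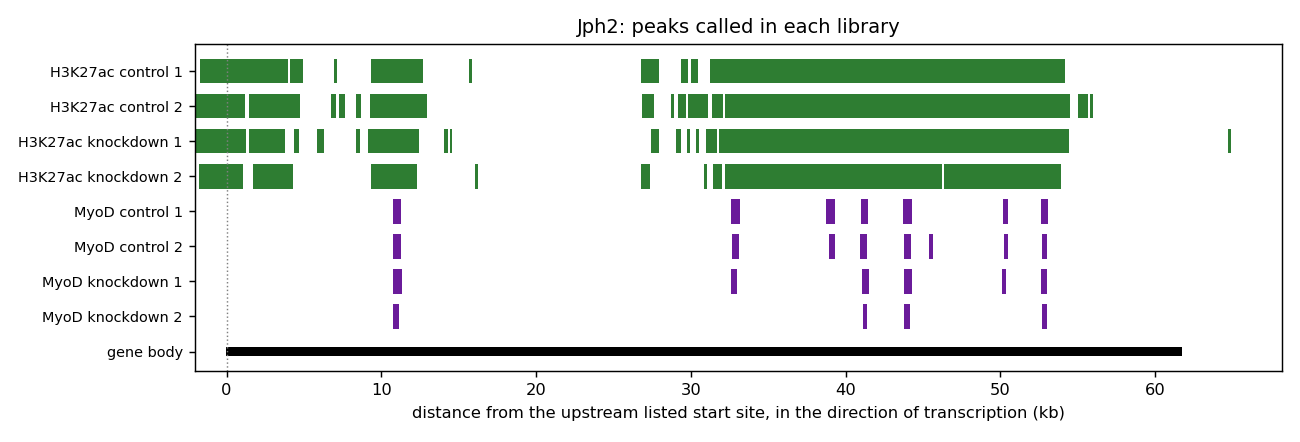
Peaks called at Jph2 in each of the 8 libraries (H3K27ac green, MyoD purple), drawn by distance in kb from the upstream listed start in the direction of transcription, with the gene body in black. The acetylated domain of 25.5 kb in the far part of the gene holds 7 MyoD regions, and knockdown 2 has the fewest MyoD peaks there.

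Trdn encodes triadin (chromosome 10, 33083483 to 33476709). Both of its constant MyoD regions lay deep inside the gene and within constant H3K27ac regions. The first (33179399 to 33180576) had 15.9 and 13.9 in the controls against 12.5 and 11.4 under knockdown, and its percentiles of 89.7 and 85.2 were above those of 78.2 and 80.5. The H3K27ac region at the same place (33178977 to 33181083) had 13.0, 14.8, 16.01 and 12.6. Here the percentiles of the knockdown, 89.1 and 86.8, were above those of the controls, 85.3 and 86.7, though knockdown 2 and control 2 were nearly equal. The second MyoD region (33195695 to 33196291) had 7.93 and 7.62 against 7.74 and 7.84. The highest H3K27ac region of Trdn (33252711 to 33255776; 13.2, 21.0, 12.01 and 11.9) held no MyoD region. The H3K27ac region over the lower-numbered gene end (33082434 to 33083826) was weak, at 3.35, 4.44, 3.46 and 3.95.

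By the percentile of mean fold of their highest MyoD region, the genes ranked Cacna1s (94.2), Stac3 (93.0), Cacng1 (91.3), Ryr3 (90.2), Ryr1 (89.8), Cacnb1 (89.3), Jph2 (87.5), Trdn (84.9), Cacna2d1 (82.4) and Jph1 (68.6). For 8 of the 9 neighbouring pairs in this order the ranges over the 4 libraries overlapped. The exception was Cacna2d1, at 76.1 to 84.4, over Jph1, at 60.8 to 70.7. H3K27ac followed another order: the highest regions of Ryr1 and Cacna1s were at the 45.1 and 46.6 percentiles, and that of Stac3 at 95.2. Over all 18 constant triad MyoD regions the median mean fold was 13.0, against 8.34 over all constant MyoD regions, and 13 of the 18 were in the upper 50 percent. For the 30 constant H3K27ac regions it was 8.14 against 7.56.

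Most MyoD regions of these genes overlapped H3K27ac, as did most MyoD regions of the whole series. On any H3K27ac region lay 31 of the 38 (81.6%), against 69.5% of all MyoD regions. The rule that assigned regions favours gene bodies, and all 18 constant MyoD regions lay in or touched one, as did 70.0% of the constant MyoD regions assigned to any gene by the same rule. Within 1 kb of a gene end lay 3 of the 18 (16.7%, against 15.3%), those of Stac3, Cacng1 and Ryr1. Of the 18, 16 overlapped a constant H3K27ac region (88.9%), against 76.1% of all constant MyoD regions. The exceptions were the Ryr1 site at 63.7 kb and the Jph1 site starting at 17001318, whose H3K27ac regions lacked a peak in 1 or more libraries. In 8 of the 10 genes the highest MyoD region lay in the highest H3K27ac region, the exceptions being Cacna2d1 and Trdn. The same held for 53.0% of the 4479 genes with constant regions of both antibodies. A single constant H3K27ac region leaves little choice, and 4 of the 8 genes, Cacnb1, Cacng1, Stac3 and Ryr3, had only 1 (73.6% over all such genes). Of the 6 genes with several, the places matched at 4 (44.5% over all such genes). Seen from the acetylation, 13 of the 30 constant H3K27ac regions held a constant MyoD region (43.3%, against 26.7% of all). Those 13 had a median mean fold of 13.5 and the other 17 of 6.06. The same medians over all constant H3K27ac regions were 9.79 and 6.99.

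Co-occupancy was also read library by library, as the share of triad MyoD peaks that overlapped an H3K27ac peak by at least 1 base in the library with the same group and number. It was 82.8% (24 of 29 peaks, 95% Clopper-Pearson interval 64.2% to 94.2%) in control 1 and 87.9% (29 of 33, 71.8% to 96.6%) in control 2. In the knockdown it was 85.7% (24 of 28, 67.3% to 96.0%) and 81.0% (17 of 21, 58.1% to 94.6%). The means of 85.3% ± 3.62 (SD, n = 2) and 83.3% ± 3.37 (SD, n = 2) differed by less than the spread between replicates, and the sign of the difference turned without control 2 (0.575 percentage points) or without knockdown 2 (0.396). Over all MyoD peaks the corresponding means were 69.7% and 69.5%. When the MyoD summit itself had to lie inside the H3K27ac peak, the shares were 75.9% and 84.8% for the controls and 71.4% and 57.1% under knockdown, compared with 55.4%, 58.2%, 64.3% and 46.0% over all MyoD peaks. Both knockdown shares were below both controls, and the lowest belonged to the pair of knockdown 2 libraries. By the same summit rule the MyoD peaks of knockdown 2 stood at 81.0% against the H3K27ac list of knockdown 1 (65.9% over all MyoD peaks). Those of knockdown 1 stood at 53.6% against the H3K27ac list of knockdown 2 (44.6% over all MyoD peaks). The cause was not tested. The labels do not say that same-numbered libraries of the 2 antibodies share cells, and the intervals cover counting error over peaks only.

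The study compares knockdown with control, and the triad genes had no knockdown-only region of either antibody. An upper limit for a count of 0 was taken as 3 divided by the number of regions, approximately the 1-sided 95% limit. It was 3.66% for the 82 H3K27ac regions, against 0.768% knockdown-only over all H3K27ac regions. For the 38 MyoD regions it was 7.89%, against 0.725%. This limit takes regions as independent, and neighbouring regions of 1 gene may not be. Control-only were 2 H3K27ac regions, at Cacna2d1 and Jph2, or 2.44% against 1.46% over all regions. Control-only were 3 MyoD regions, at Cacnb1, Jph1 and Jph2, or 7.89% against 4.53%. These shares rest on 2 and 3 regions. Without knockdown 2, a group-only region needs 1 knockdown list instead of 2, and the knockdown-only counts were 15 for H3K27ac and 2 for MyoD. Without knockdown 1 the control-only counts were 11 and 10, and without control 1 they were 14 and 6. Without control 2 the H3K27ac control-only count was 5. Counts over all regions with a library left out were not computed, so these counts have no share beside them. The 5 control-only regions had folds from 2.79 to 6.62. The 20 MyoD regions that were not constant had mean folds of 2.81 to 7.02, and the constant ones 6.30 to 17.8.

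Of the 82 triad H3K27ac regions, 51 and 56 had a peak in the controls, 65 in knockdown 1 and 32 in knockdown 2. These are 62.2%, 68.3%, 79.3% and 39.0%, beside 62.5%, 73.6%, 80.7% and 48.0% of all H3K27ac regions, in the same order of libraries. The group means were 53.5 ± 3.54 (SD, n = 2) and 48.5 ± 23.3 (SD, n = 2), so the difference was smaller than the spread between the knockdown libraries, which lie on either side of the controls. The means differed by −9.35% at the triad genes and by −5.46% over all H3K27ac regions. Without knockdown 2 the knockdown count was 11.5 above the control mean, and without knockdown 1 the difference was −22.0. For the 38 MyoD regions the counts were 29 and 33 in the controls against 28 and 21 under knockdown, with means of 31.0 ± 2.83 (SD, n = 2) and 24.5 ± 4.95 (SD, n = 2). Both knockdown counts were below both controls, by 21.0% on average, and over all MyoD regions the same comparison gave 16.6% fewer. The difference was −6.5 regions, −3.0 without knockdown 2 and −10.0 without knockdown 1. With every list held to the same number of peaks it was −2.5. Knockdown 2 lacked a peak in 17 of the 20 MyoD regions that were not constant (85.0%, against 78.9% over all such regions) and in 50 of the 52 H3K27ac regions (96.2%, against 92.1%). It was the only library without a peak at 7 of the 38 MyoD regions (18.4%, against 8.44% over all) and at 9 of the 82 H3K27ac regions (11.0%, against 8.51%). Regions missing only from control 1 were 1 of 82 for H3K27ac (1.22%, against 1.56%) and 0 of 38 for MyoD (against 1.36%). Those missing only from control 2 were 0 and 0 (against 0.730% for H3K27ac and 1.39% for MyoD), and those missing only from knockdown 1 were 0 and 0 (against 0.133% and 2.75%).

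Ranks within the constant regions were compared next, because every list then ranks the same regions. The percentile of a region is its place by fold among all constant regions of the antibody, with 100 for the highest. The median difference, knockdown minus control, was −1.48 over the 18 MyoD regions (range −21.3 to 18.4), with 9 lower and 9 higher, and 0.0464 over all constant MyoD regions. Over all constant MyoD regions the middle 90 percent of differences ran from −24.0 to 23.9, and 18 of 18 triad regions were within it. Both extremes were neighbouring sites of Jph2, those starting at 163356460 and 163353682, and at both the control libraries differed from each other by more than the group means did. For H3K27ac the median difference was −2.48 over 30 regions (range −20.9 to 18.4), with 21 lower and 9 higher, while over all constant H3K27ac regions the median was 0.156 and 49.0% were lower. Of the 30, 26 lay within the middle 90 percent of all constant regions, −17.2 to 16.8. The H3K27ac median was 0.235 without control 2, and the MyoD median 0.212 without knockdown 1, so 1 library decided either sign. Over the triad regions the median absolute difference between the group means was 5.26 points for MyoD and 4.24 for H3K27ac. Between the single control libraries it was 7.84 and 9.98, and between the single knockdown libraries 3.66 and 5.58; single libraries scatter more than means of 2.

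The percentile was lower in both knockdown libraries than in both controls at 3 of 18 MyoD regions (16.7%, against 15.9% of all constant regions), those of Ryr1 near the start, Trdn starting at 33179399 and Cacng1 starting at 107714185. It was higher in both at 1 (5.56%, against 16.4%), the Jph2 site starting at 163344913. For H3K27ac the numbers were 7 of 30 lower (23.3%, against 15.9%) and 2 of 30 higher (6.67%, against 16.4%). The 7 were 2 regions of Ryr1, starting at 29123212 and 29042796, and those of Cacnb1 over its start, Jph1 starting at 17084687, Jph2 starting at 163370061, Cacna2d1 starting at 15984688 and Trdn starting at 33252711. The 2 higher were the Trdn region starting at 33178977 and a weak Cacna2d1 region starting at 16297352. The Ryr1 start region was the only place where MyoD and H3K27ac were both ranked lower by both knockdown libraries. For H3K27ac there, knockdown 2 was within 2 percentile points of control 2. The share of such places over all constant regions was not computed, so the Ryr1 place is not set apart by this count. At the Trdn site starting at 33179399 both knockdown libraries ranked MyoD lower and H3K27ac higher. For H3K27ac there, knockdown 2 and control 2 were nearly equal, and the share of such opposite places was not computed either.

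**Figure D4:**
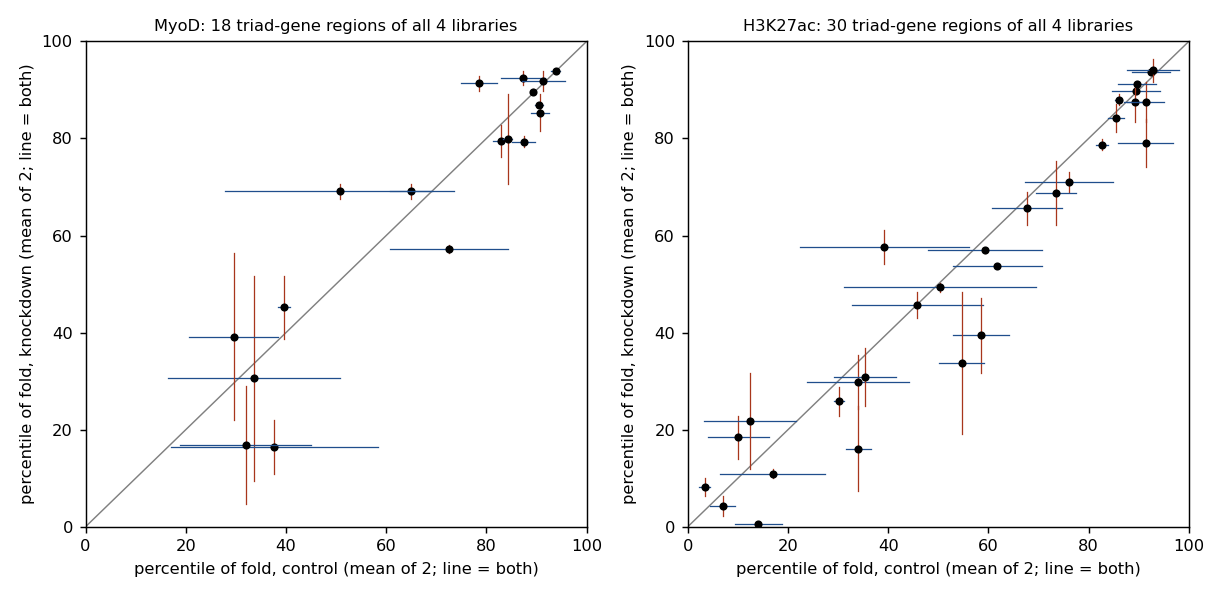
Percentile of fold enrichment among constant regions, control mean (horizontal axis) against knockdown mean (vertical axis), for 18 MyoD and 30 H3K27ac triad-gene regions, with lines joining the 2 libraries of a group. Most points lie near the diagonal of equal rank, and where they leave it the lines between replicates are often as long as the distance.

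Another 44 genes of the pathway were counted in the same way. They encode store proteins such as calsequestrin and the calcium pumps, proteins of store-operated entry and of T-tubule assembly, and other channel subunits and isoforms. Of these 44 genes, 20 held a constant MyoD region and 33 a constant H3K27ac region, and 12 had no MyoD region at all. Among all protein-coding genes, 23.0% held a constant MyoD region, 54.6% a constant H3K27ac region and 40.7% any MyoD region. The constant shares at the 44 genes were 35.1% of MyoD and 44.2% of H3K27ac regions, against 40.8% and 43.5% over all regions. These genes had 4 control-only and 1 knockdown-only of 97 MyoD regions, beside 4.53% and 0.725% over all MyoD regions. For H3K27ac the counts were 3 and 1 of 190 regions, beside 1.46% and 0.768% over all. The most constant MyoD regions, 4 each, were at Bin1 (amphiphysin 2, a shaper of T-tubules), Dysf (the membrane repair protein dysferlin) and Cacna2d3 (another α2δ subunit), each of which also held 1 control-only MyoD region, as did Cacng6. Cacna2d2 held the knockdown-only MyoD region. At Cacna1c, the cardiac counterpart of Cacna1s, lay 2 control-only H3K27ac regions and 1 knockdown-only one, and at Tmem38a, a potassium channel of the reticulum, 1 control-only one. Of the isoforms of heart and brain, Ryr2 had 1 H3K27ac region that was not constant and no MyoD region, and Jph3 had no region. Jph4 had 1 constant MyoD region of 4 and 2 H3K27ac regions, both constant. Cacna1c had 1 constant H3K27ac region of 7, and 3 MyoD regions, none of them constant.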

How the data were processed

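ChIP-seq peak lists of 8 libraries were used (2 antibodies, control and knockdown, 2 libraries each), and the 8 input libraries were not used here. Per the labels' protocols, chromatin held by the antibody was tagmented to make the libraries. The build mm10 and the tools MACS2 2.1.1, Bowtie2 2.3.2, bedtools 2.26.0, SAMtools 1.3 and Picard 2.9.2 are named per the submitters' processing notes. The sources used here do not give their options or the input paired with each library. Each deposited list belongs to 1 library. The authors deposited for each peak a fold enrichment, which is a linear ratio to background. The deposited lists also hold −log10 of the p-value, −log10 of the q-value (lowest value 1.30) and a whole-number score. The deposited summit offset gave summit positions. Fold belongs to its own list and was used only to describe and rank peaks.

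Peaks of an antibody were merged with a gap of 0 bp (Python 3.11.15, pandas 2.3.3) and assigned to RefSeq genes of GRCm38.p6. Start sites and promoter sequences came from RefSeq tables of that build. The merging, presence and assignment code was tested on simulated data. The regions named are those near a start or gene end, those with the highest fold, the widest, and all control-only or knockdown-only ones, besides regions chosen for their position or values after these were seen. One list of marker genes is not reported here. The members and lists were chosen with earlier results of these data known. Alternatives were a merge gap of 1000 bp, a −log10 q of at least 5, equal list lengths, gene bodies only, 1 gene per region, other overlap rules, and leaving out each library. The binomial intervals were computed over the peaks of 1 library, so they cover counting error over peaks only. Read depth is unknown.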

Additional observations from a re-analysis of the deposited data

How the results depend on the processing

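Of 100 values recomputed under 11 alternative settings, 82 moved by less than the spread between replicates, the binomial interval or 1.5 times the count, and 18 moved further. No paired analysis was possible because the results are descriptions of peak lists without a test, and the labels do not say what a shared replicate number stands for. With peaks within 1000 bp merged, 50% of the triad H3K27ac regions were present in all 4 libraries and 1 was control-only; with equal numbers of peaks 1 was control-only. The knockdown-minus-control difference in co-occupancy was −5.97 percentage points with equal numbers of peaks, −8.06 when 50% of the MyoD peak had to be covered and −16.1 when its summit had to lie inside the H3K27ac peak. Over all MyoD peaks the shares under the 50% rule were 57.8% and 60.2% in the controls against 66.3% and 49.2% under knockdown. Under the summit rule they were 55.4% and 58.2% against 64.3% and 46.0%.

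Leaving out 1 library changed the counts most, since a group-only region then needs fewer lists. The difference in regions with a peak ranged from −22.0 to 11.5 for H3K27ac, above 0 only without knockdown 2, and from −10.0 to −3.0 for MyoD. The constant share ranged from 39.0% to 48.1% for H3K27ac and from 48.6% to 69.4% for MyoD, the highest without knockdown 2 in each case. Control-only counts ranged from 2 to 14 for H3K27ac and from 3 to 10 for MyoD, and knockdown-only counts from 0 to 15 and from 0 to 2. The same counts over all regions were not computed. The difference in co-occupancy ranged from −4.55 to 0.575 percentage points, and the median rank difference from −5.92 to 0.235 for H3K27ac and from −2.97 to 0.212 for MyoD. The upper ends above 0 came without control 2, or for the MyoD ranks without knockdown 1. With a −log10 q of at least 5, co-occupancy (0.884) and the MyoD rank difference (0.0827) were also above 0. The cause was not tested.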
